A study of Mus musculus with 16 samples.

Results

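The 40 genes described here carry out chromosomal replication and cell division, and they were found by gene symbol among the 53700 gene lines counted in each of 16 RNA-seq libraries of sorted mouse microglia. All 40 had a line, and all 40 passed the filter on low counts that left 17090 genes for testing. They were divided by role into 14 replication and G1/S genes, 24 mitosis and G2/M genes, and 2 genes of neither list, Stmn1 and Hmgb2. Microglia, the resident macrophages of the brain, had been sorted from whole brain as DAPI-negative, CD11b-high, CD45-intermediate and Ly6c-negative cells. The animals were Ercc1 KO mice and WT controls of a C57Bl6J/FVB cross, aged 6 or 12 weeks, with 4 libraries in each of the 4 groups. Ercc1 encodes a subunit of a DNA repair endonuclease, and the labels give the knockout no further detail of allele or Cre driver. The 12-week WT libraries are numbered 3, 4, 5_6 and 8 and the other groups 1 to 4, and the labels do not say whether 5_6 pools animals.

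A dividing cell first copies its DNA. The Mcm2 to Mcm7 proteins form the helicase that opens the duplex, Cdc6 loads it, Pcna clamps the polymerase to the template, Rrm1, Rrm2, Tyms and Tk1 supply nucleotides, and the E cyclins Ccne1 and Ccne2 drive entry into S phase. In mitosis Cdk1 with cyclins B, the Aurora and Polo kinases, kinesins and spindle proteins then separate the chromosomes, and Ube2c and Cdc20 act with the anaphase-promoting complex to end it. Transcription of the mitosis genes is known to depend on a promoter element called the cell cycle homology region (CHR) and on CCAAT boxes bound by NF-Y, and that of many replication genes on E2F sites. Adult microglia are long-lived cells that renew by slow division, so their dividing fraction is normally small.

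Summed over genes, WT libraries held 8250645 to 13278797 counts at 6 weeks and 9045823 to 22142972 at 12 weeks, and KO libraries 9885121 to 17499408 and 7882182 to 9653663. Levels are given as CPM, counts scaled to a TMM-adjusted library size. The microglia markers P2ry12, Tmem119, Cx3cr1, Sall1, Csf1r and Siglech had counts in all 16 libraries, with group means of P2ry12 between 9622 and 16862 CPM. Ercc1 averaged 18.8 ± 7.91 CPM in WT and 3.63 ± 0.803 CPM in KO at 6 weeks (SD, n = 4). Its 12-week means were 20.7 ± 19.2 CPM in WT and 4.28 ± 2.80 CPM in KO. Neither difference passed the edgeR test described below (adjusted p = 0.21 at 6 weeks and 0.11 at 12 weeks). The male-labelled 12-week WT library 5_6 held both Xist (339.5 CPM) and summed Y-linked transcripts (109 CPM). The labels do not say whether the libraries of a group came from separate animals, so the p-values measure the spread between these libraries.

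The mitosis genes were higher in KO microglia at both ages, and the replication genes by a smaller factor. The 24 mitosis genes summed to 91.3, 71.6, 123 and 94.9 CPM in 6-week WT replicates 1 to 4 and to 295, 273, 367 and 330.1 CPM in 6-week KO replicates 1 to 4. At 12 weeks they summed to 99.7, 138, 128 and 123 CPM in WT replicates 3, 4, 5_6 and 8 and to 425, 666, 318 and 359.5 CPM in KO replicates 1 to 4. No KO library overlapped a WT library of its age, and the ratio of group means was 3.32 at 6 weeks and 3.62 at 12 weeks.

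The 14 replication genes summed to between 199.7 and 234 CPM in 6-week WT and between 301 and 432 CPM in 6-week KO. At 12 weeks the range was 159.5 to 254 CPM in WT and 311 to 453 CPM in KO. The groups again did not overlap at either age, and the ratios of group means were 1.64 and 1.86. These sums weigh abundant members most and carry no test, because the members were chosen with earlier results of these data known. In bulk libraries, fewer cells of a type and less RNA per cell cannot be told apart, so the sums do not give a number of dividing cells. The summed border macrophage markers, given at the end, also showed no overlap between the genotypes at either age and were higher in KO.

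**Figure D1:**
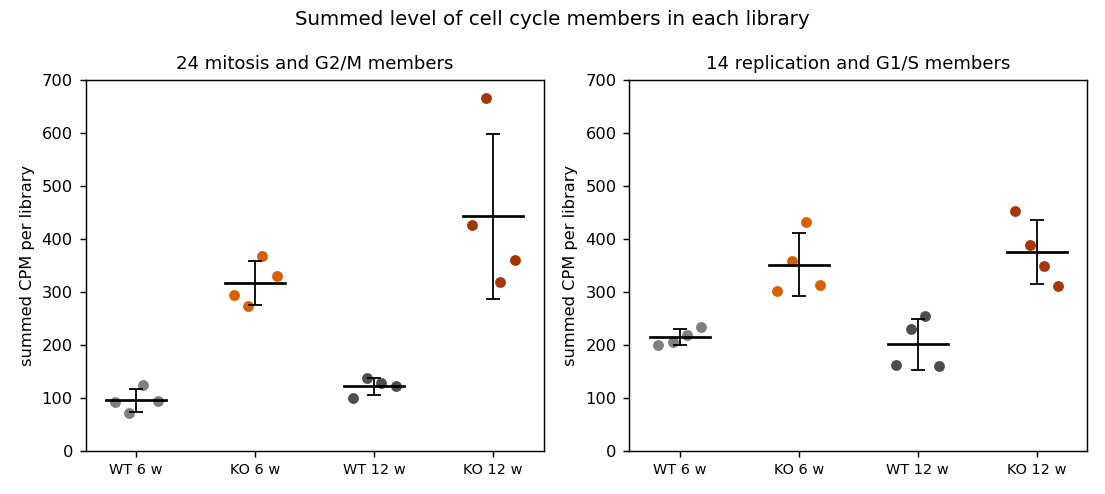
Summed CPM of the 24 mitosis genes (left) and the 14 replication genes (right) in each library, with group on the x axis. Points are libraries, horizontal bars are group means and error bars are SD (n = 4); KO libraries lie above WT libraries of the same age in both panels, and 12-week KO replicate 2 has the highest mitosis sum, 666 CPM.

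Gene by gene, the fitted change of KO against WT was positive for 24 of 24 mitosis genes at both ages and for 13 of 14 replication genes at both ages. Over all 17090 genes 48.2% of the changes were positive at 6 weeks and 48.0% at 12 weeks. The median log2 change of the mitosis genes was 2.25 at 6 weeks and 2.21 at 12 weeks, that of the replication genes was 0.95 and 1.01, and that of all genes tested was -0.02 and -0.03. The exceptions among the replication genes were the helicase gene Mcm7 at 6 weeks (log2 change -0.12 ± 0.41) and the thymidylate synthase gene Tyms at 12 weeks (-0.27 ± 0.52). Each ± beside a log2 change is an approximate standard error from the edgeR fit. No test compared the replication list with the mitosis list. On their WT libraries alone, Bub1, Bub1b, Aurkb, Ube2c, Spag5 and Cdc6 would not have passed the low-count filter. For these genes a fall in KO could hardly have been seen. That limits the counts of positive changes, of calls and of groups without overlap.

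Few single genes passed the test. In edgeR's quasi-likelihood test, adjusted by Benjamini-Hochberg over all 17090 genes, 3 of 40 members rose at 6 weeks and none fell, where 0.796% of all genes rose. At 12 weeks 5 of 40 rose and none fell, where 2.03% of all genes rose. The risers at 6 weeks were Top2a, Ccnb2 and Nusap1, all of the mitosis list, and 0 of 14 replication genes were called at that age. With an unadjusted p under 0.05 there were 17 members at 6 weeks, of which 13 were mitosis and 3 replication genes, where 7.31% of all genes had such a p. DESeq2 called 9 members at 6 weeks, with the replication genes Mcm6 and Ccne2 among them. It called 2.87% of all genes to which it gave an adjusted p, in either direction, and 4 members lacked one. The risers at 12 weeks were Top2a, Bub1, Kif20a and Spag5 of the mitosis list and Mcm6 of the replication list, and 24 members had an unadjusted p under 0.05, where 14.4% of all genes did. DESeq2 called 14 members at 12 weeks, all higher. It called 6.89% of all genes to which it gave an adjusted p, in either direction, and 3 members lacked one.

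All 4 KO libraries lay above all 4 WT libraries for 17 of 40 members at 6 weeks, against 4.92% of all genes tested. Those 17 were 13 of 24 mitosis genes, 3 of 14 replication genes (Mcm4, Rrm2 and Ccne2) and Stmn1. At 12 weeks the count was 19 of 40, against 5.13% of all genes: 12 mitosis genes, 5 replication genes (Mcm2, Mcm3, Mcm5, Mcm6 and Tk1), Stmn1 and Hmgb2. No member had all KO libraries below all WT libraries at either age.

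**Figure D2:**
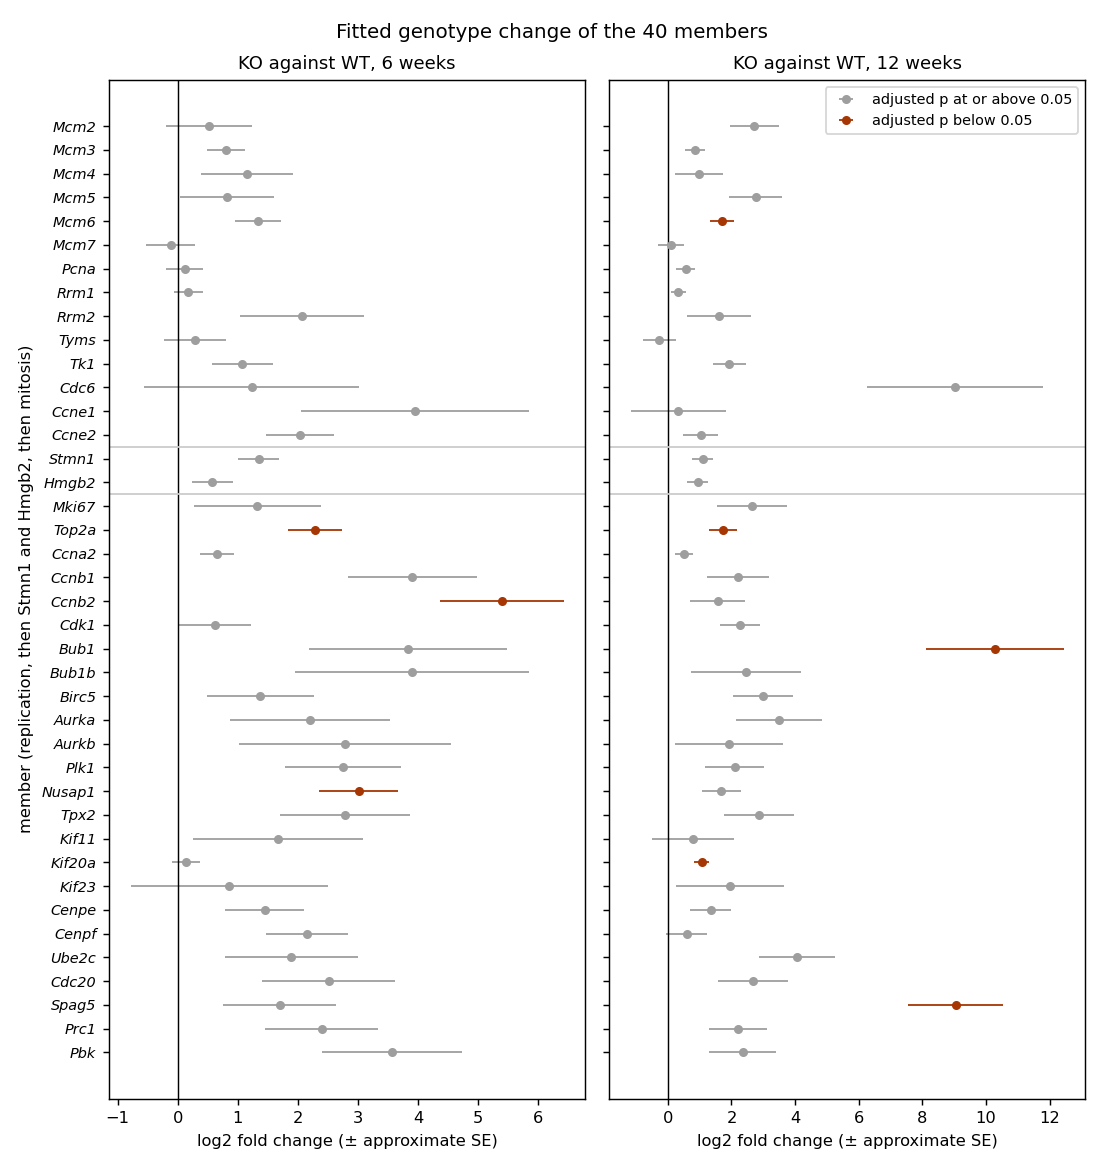
Fitted log2 fold change of KO against WT with its approximate SE for each of the 40 members (y axis, replication genes on top, mitosis genes at the bottom), at 6 weeks (left) and 12 weeks (right); the x axes differ in range. Red marks the 3 and 5 members past the threshold, and all mitosis genes lie right of the line at 0; the 12-week values of Cdc6, Bub1 and Spag5 are set by the fit's prior because no WT library held a count.

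Top2a, the topoisomerase that untangles chromosomes before they separate, was the only member past the threshold at both ages. It stood at 12.5, 3.65, 9.41 and 12.99 CPM in 6-week WT and at 58.9, 29.7, 61.3 and 39.2 CPM in 6-week KO. At 12 weeks the levels were 25.8, 11.2, 11.6 and 7.91 CPM in WT and 28.7, 65.7, 43.6 and 50.1 CPM in KO. The groups did not overlap at either age, although 12-week WT replicate 3 came within a few CPM of KO replicate 1. The log2 change was 2.29 ± 0.45 at 6 weeks (edgeR adjusted p = 0.022) and 1.74 ± 0.44 at 12 weeks (adjusted p = 0.045). Leaving out 1 of the 16 libraries at a time, the call held in 11 of 16 refits at 6 weeks (adjusted p from 0.0053 to 0.094) and in 4 of 16 at 12 weeks (0.0066 to 0.12).

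Ccnb2 encodes cyclin B2, a partner of Cdk1 at entry into mitosis. Its levels were 0.216, 0, 0 and 2.31 CPM in 6-week WT and 12.4, 12.4, 19.9 and 26.3 CPM in 6-week KO. In WT at that age 19 of its reads came from replicate 4 and 2 from replicate 1, and every KO library lay above every WT library. The log2 change was 5.39 ± 1.03 (edgeR adjusted p = 0.018), and without WT replicate 1, 2 or 3 the call was lost (adjusted p up to 0.077). At 12 weeks Ccnb2 stood at 5.52, 5.13, 8.29 and 4.12 CPM in WT and at 15.46, 50.3, 2.46 and 22.2 CPM in KO. KO replicate 3 lay below every WT library, and the change of 1.57 ± 0.86 did not pass (adjusted p = 0.45).

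The 250 bases before the annotated starts of Top2a and Ccnb2, and of the replication gene Mcm6, are shown because they hold the promoter elements by which the lists are known to differ. They come from RefSeq on build GRCm38.p6, at chr11:99024190-99024439 (minus strand) for Top2a, chr9:70421555-70421804 (minus strand) for Ccnb2 and chr1:128359706-128359955 (minus strand) for Mcm6. Capitals mark every match, on either strand, to the CHR (TTTGAA or TTCGAA), the CCAAT box (CCAAT) or the E2F core (TTCGCGC or TTGGCGC).
Top2a: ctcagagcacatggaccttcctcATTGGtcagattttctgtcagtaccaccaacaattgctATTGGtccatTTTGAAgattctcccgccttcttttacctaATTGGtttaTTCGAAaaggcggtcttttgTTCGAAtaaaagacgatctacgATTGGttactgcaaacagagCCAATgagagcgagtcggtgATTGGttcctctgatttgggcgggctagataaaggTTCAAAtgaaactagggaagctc
Ccnb2: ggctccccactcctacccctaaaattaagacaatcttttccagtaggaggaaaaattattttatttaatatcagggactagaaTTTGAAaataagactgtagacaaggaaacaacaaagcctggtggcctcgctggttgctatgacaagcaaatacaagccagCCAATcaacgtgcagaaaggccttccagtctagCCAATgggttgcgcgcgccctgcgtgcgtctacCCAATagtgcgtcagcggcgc
Mcm6: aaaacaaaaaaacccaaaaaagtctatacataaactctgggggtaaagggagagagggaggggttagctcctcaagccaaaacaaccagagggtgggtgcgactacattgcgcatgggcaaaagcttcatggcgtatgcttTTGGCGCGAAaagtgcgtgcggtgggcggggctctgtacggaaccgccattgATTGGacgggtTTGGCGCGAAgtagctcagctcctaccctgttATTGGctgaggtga
The Top2a stretch holds 4 CHR and 6 CCAAT matches, some of them read as TTCAAA or ATTGG from the other strand. The Ccnb2 stretch holds 3 CCAAT matches and 1 CHR match at position -167 (the start being 0), and a second CHR match begins 4 bases past the start, beyond the stretch shown. The Mcm6 stretch holds no CHR match, 2 CCAAT matches and E2F core matches on both strands that overlap within each longer capital run.

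Across windows of 250 bases before to 50 after the start, 32 of the 40 members had an entry. A CHR match was present in 15 of 19 mitosis genes (78.9%), 2 of 12 replication genes (16.7%) and 21.7% of all 27025 genes in the table. A CCAAT match was present in 17 of 19 mitosis genes (89.5%), 8 of 12 replication genes (66.7%) and 41.1% of all genes. The E2F core was found in 3 of 19 mitosis genes (15.8%), 4 of 12 replication genes (33.3%) and 4.47% of all genes. Among called members, Top2a, Ccnb2, Bub1 and Spag5 held both CHR and CCAAT matches, whereas Nusap1 held none of the 3 motifs in this window. A match is a run of letters and not evidence that a factor binds there in microglia.

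Nusap1 binds and stabilises spindle microtubules. It stood at 1.72, 0.343, 0.870 and 0.728 CPM in 6-week WT and at 6.04, 5.69, 8.42 and 9.03 CPM in 6-week KO, with no overlap. The log2 change of 3.01 ± 0.65 passed (edgeR adjusted p = 0.042), but in only 5 of 16 refits that each left out 1 library (adjusted p from 0.025 to 0.17). At 12 weeks the levels were 9.41, 1.90, 11.6 and 2.64 CPM in WT and 21.9, 35.9, 9.48 and 19.8 CPM in KO. WT replicate 5_6 exceeded KO replicate 3, and the change of 1.68 ± 0.61 did not pass (adjusted p = 0.19).

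Bub1, a kinase of the spindle checkpoint, was detected almost only in KO libraries. Its 6-week levels were 0, 0, 0 and 0.728 CPM in WT and 2.73, 0.805, 6.61 and 0 CPM in KO, so the groups overlapped (log2 change 3.84 ± 1.65, edgeR adjusted p = 0.61). At 12 weeks no WT library held a count, which allows up to 0.0576 CPM over the group (3 counts), while KO libraries held 9.19, 19.2, 15.0 and 11.2 CPM. The KO mean of 13.7 ± 4.44 CPM was at least 237-fold higher than that floor (edgeR adjusted p = 0.022). No WT library held more than 6 reads of Bub1, so it passed the low-count filter through its KO libraries. A fall in KO could not have been seen for this gene. Without KO replicate 2 or WT replicate 5_6 the call was lost (adjusted p up to 0.057).

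Spag5, also known as astrin, acts at kinetochores and spindle poles. It stood at 1.51, 4.11, 0.712 and 3.64 CPM in 6-week WT and at 3.12, 7.30, 5.65 and 16.3 CPM in 6-week KO, where the groups overlapped (log2 change 1.69 ± 0.94, edgeR adjusted p = 0.82). At 12 weeks all WT libraries were at 0, and KO libraries held 7.07, 8.18, 7.63 and 0.251 CPM. KO replicate 4 therefore lay close to WT, with 2 reads. The KO mean of 5.78 ± 3.72 CPM was at least 100.4-fold higher than the floor of 3 counts over the WT group (edgeR adjusted p = 0.0051), and the call held in 16 of 16 refits that left out 1 library. With only the 2 groups compared, Spag5 did not pass the low-count filter at 12 weeks and was not tested. It was not called with the replicate number as a block, which at 12 weeks compares the genotypes within numbers 3 and 4 only. The 12-week WT libraries also lay below all 6-week WT libraries.

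Kif20a, a kinesin of the central spindle needed for cytokinesis, overlapped between genotypes at 6 weeks, with 20.2, 21.9, 19.6 and 17.8 CPM in WT and 20.7, 18.5, 29.6 and 18.7 CPM in KO (log2 change 0.13 ± 0.24, edgeR adjusted p = 1.0). Its 12-week levels were 17.0, 19.8, 24.6 and 17.6 CPM in WT and 51.4, 40.2, 44.7 and 29.3 CPM in KO, with no overlap. The 12-week change was 1.06 ± 0.24 (adjusted p = 0.021), and it did not pass without KO replicate 1, KO replicate 2 or WT replicate 3 (adjusted p up to 0.068). In the GENCODE M21 annotation (GRCm38), 1271 of its 4338 exonic bases overlap exons of Cdc23 on the opposite strand. The strand setting of the counts is not given in the sources used here, so reads of Kif20a and Cdc23 may be mixed. Cdc23 averaged 112.5 ± 8.90 CPM in 12-week WT and 99.8 ± 38.3 CPM in 12-week KO (log2 change -0.18 ± 0.23, edgeR adjusted p = 0.84). Its 12-week KO libraries held 132.5, 46.4, 121.6 and 98.4 CPM, so replicate 2 alone lay far below the WT libraries. The part of Cdc23 reads in the Kif20a change was not tested.

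Mki67, which encodes the customary proliferation marker Ki-67, did not pass at either age. Its levels were 10.2, 4.45, 15.97 and 1.21 CPM in 6-week WT and 21.9, 20.8, 17.4 and 28.7 CPM in 6-week KO, so the groups did not overlap although the change of 1.32 ± 1.06 had an edgeR adjusted p of 0.97. At 12 weeks they were 0, 12.9, 0.0439 and 4.12 CPM in WT and 32.3, 30.9, 10.2 and 27.1 CPM in KO. KO replicate 3 lay below WT replicate 4, and the change of 2.64 (SE 1.1) did not pass (adjusted p = 0.27). The WT libraries of 12 weeks spanned from no read to 12.9 CPM.

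**Figure D3:**
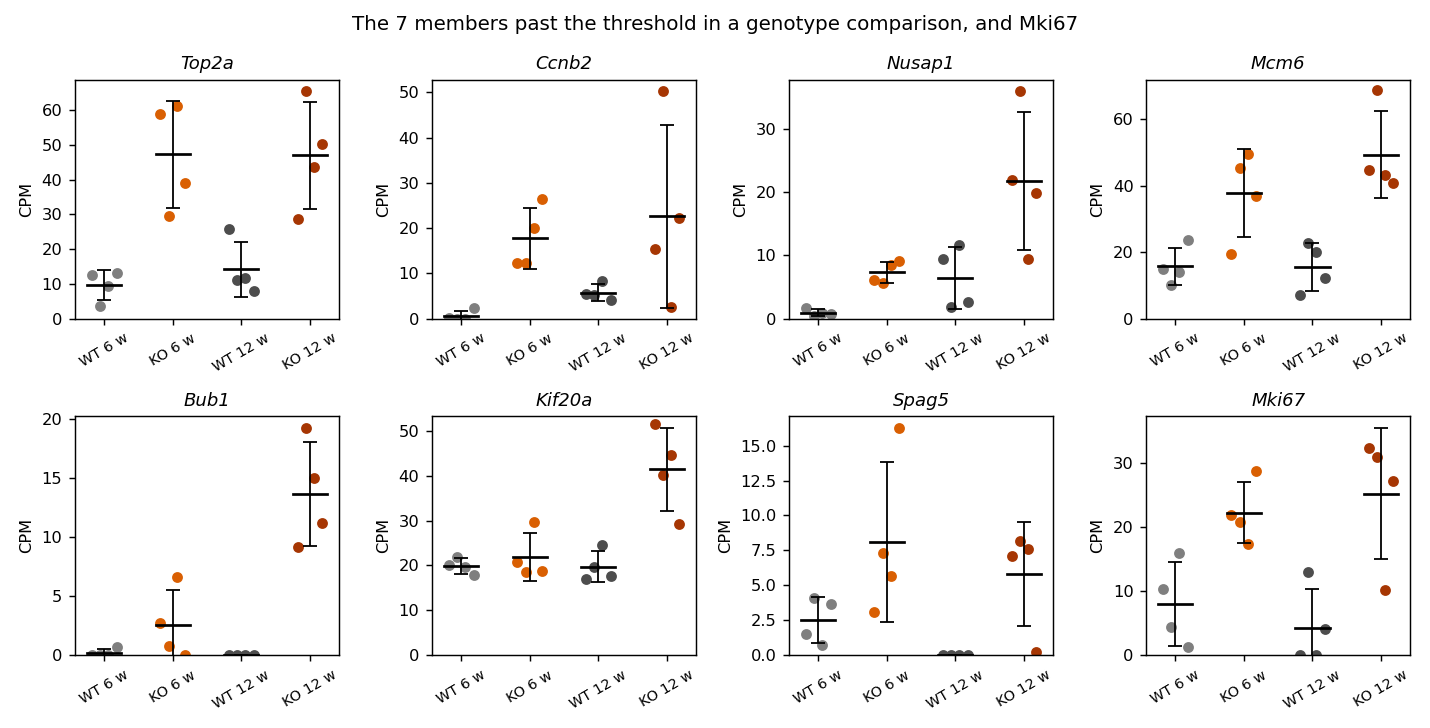
CPM in each library for the 7 members past the threshold in a genotype comparison and for Mki67, with group on the x axis; points are libraries, bars are means and error bars are SD (n = 4), and the y axes differ between panels. Bub1 and Spag5 are at 0 in all 12-week WT libraries, and the Kif20a groups overlap at 6 weeks and not at 12 weeks.

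The remaining 17 mitosis genes were positive at both ages and did not pass at either. At 6 weeks their changes ran from 0.61 ± 0.61 for Cdk1, the kinase of mitotic entry, to 3.90 ± 1.07 for its partner cyclin gene Ccnb1. At 12 weeks they ran from 0.50 ± 0.29 for the cyclin A gene Ccna2 to 4.05 ± 1.19 for Ube2c, a ubiquitin-conjugating enzyme of the anaphase-promoting complex (edgeR adjusted p = 0.087). Cdk1 averaged 6.21 ± 4.88 CPM in 12-week WT and 30.2 ± 13.6 CPM in 12-week KO (log2 change 2.27 ± 0.62, adjusted p = 0.064). Of the mitotic kinases, Plk1 averaged 1.48 ± 1.44 and 9.94 ± 3.66 CPM in WT and KO at 6 weeks and 2.25 ± 1.60 and 10.2 ± 4.76 CPM at 12 weeks, without overlap at either age. Aurka averaged 2.27 ± 2.23 and 7.41 ± 2.95 CPM at 6 weeks and 1.21 ± 1.48 and 11.1 ± 5.89 CPM at 12 weeks, and its groups overlapped at both ages. Some of these genes overlap neighbours on the opposite strand, among them Ccna2 with Exosc9, Ube2c with Tnnc2, Cdc20 with Elovl1 and Prc1 with Rccd1.

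Among the replication genes, Mcm6 was the only one called. It stood at 15.0, 10.2, 14.2 and 23.5 CPM in 6-week WT and at 19.5, 45.5, 49.5 and 36.9 CPM in 6-week KO, where KO replicate 1 lay below WT replicate 4 (log2 change 1.33 ± 0.38, edgeR adjusted p = 0.19). At 12 weeks the levels were 7.03, 22.9, 20.1 and 12.1 CPM in WT and 44.7, 68.9, 43.2 and 40.9 CPM in KO, with no overlap. The change was 1.69 ± 0.38 (adjusted p = 0.023) and did not pass without KO replicate 2, WT replicate 3 or WT replicate 8 (adjusted p up to 0.084).

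The other helicase subunits varied. Mcm3, the replication member with the highest mean CPM, had 34.9, 31.6, 47.3 and 45.9 CPM in 6-week WT and 58.3, 66.9, 122 and 37.9 CPM in 6-week KO. In 12-week WT it had 27.5, 45.6, 48.0 and 24.8 CPM and in 12-week KO 61.5, 56.3, 69.9 and 79.6 CPM. The groups overlapped at 6 weeks and not at 12 weeks, and neither change passed (0.80 ± 0.31 and 0.86 ± 0.31). Mcm2 and Mcm5 had log2 changes of 2.72 ± 0.76 and 2.76 ± 0.84 at 12 weeks (edgeR adjusted p = 0.071 and 0.10), without overlap, against 0.53 ± 0.71 and 0.82 ± 0.78 at 6 weeks. Mcm7 had 16.8, 19.3, 22.8 and 16.9 CPM in 6-week WT and 11.4, 26.0, 20.05 and 12.9 CPM in 6-week KO, fully overlapping. Its 12-week levels were 8.22, 11.6, 26.97 and 26.9 CPM in WT and 24.1, 10.8, 18.96 and 26.2 CPM in KO, again with full overlap.

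Pcna, the polymerase clamp and a common marker of S phase, stood at 15.3, 14.7, 7.59 and 16.6 CPM in 6-week WT and at 13.7, 14.1, 15.1 and 14.8 CPM in 6-week KO. In 12-week WT it had 15.7, 13.1, 13.2 and 20.3 CPM and in 12-week KO 19.1, 20.2, 16.9 and 36.4 CPM. The groups overlapped at both ages and the changes of 0.11 ± 0.30 and 0.56 ± 0.30 did not pass (edgeR adjusted p = 1.0 and 0.44). Rrm1, the large subunit of ribonucleotide reductase, had log2 changes of 0.18 ± 0.24 and 0.32 ± 0.24, and its small subunit gene Rrm2 had 2.06 ± 1.03 and 1.59 ± 1.01, none of them past the threshold. The thymidine kinase gene Tk1 averaged 5.95 ± 2.61 CPM in 12-week WT and 21.1 ± 8.66 CPM in 12-week KO (log2 change 1.94 ± 0.52, adjusted p = 0.060). Tyms had 34.1, 20.8, 46.4 and 24.03 CPM in WT and 56.99, 38.6, 22.2 and 39.1 CPM in KO at 6 weeks. Its 12-week levels were 26.5, 42.9, 42.5 and 15.9 CPM in WT and 53.04, 21.4, 25.7 and 5.14 CPM in KO, where replicates 1 and 4 of KO lay outside the WT range on either side.

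The G1/S genes Cdc6 and Ccne1 had a count in 7 and 12 of the 16 libraries. At 6 weeks Cdc6 had 0, 4.57, 0.553 and 0 CPM in WT and 0.779, 1.26, 5.65 and 0 CPM in KO, and at 12 weeks it was at 0 in all WT libraries and at 10.3, 0, 5.05 and 0 CPM in KO. Its 12-week change of 9.02 ± 2.77 depends on the prior and did not pass (edgeR adjusted p = 0.12). The 6-week levels of Ccne1 were 1.83, 0, 0.0791 and 0 CPM in WT and 0.779, 5.12, 4.37 and 3.91 CPM in KO, and the 12-week levels were 0, 4.84, 5.66 and 3.48 CPM in WT and 11.7, 0.319, 1.72 and 0 CPM in KO. Both overlapped between genotypes at both ages. The other E cyclin gene, Ccne2, averaged 4.04 ± 3.09 CPM in WT and 16.5 ± 4.02 CPM in KO at 6 weeks without overlap (2.03 ± 0.57, edgeR adjusted p = 0.17), and its exons overlap those of Ints8 on the opposite strand.

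Stmn1, a microtubule-destabilising protein, stood at 3.45, 4.00, 2.85 and 2.91 CPM in 6-week WT and at 9.25, 8.62, 6.93 and 9.03 CPM in 6-week KO. At 12 weeks it had 7.14, 4.37, 7.54 and 7.39 CPM in WT and 16.06, 16.05, 10.6 and 14.3 CPM in KO. The groups did not overlap at either age, with changes of 1.35 ± 0.34 and 1.097 ± 0.34 (edgeR adjusted p = 0.10 at both ages). Hmgb2, a chromatin protein of dividing cells, averaged 9.29 ± 1.61 CPM in 12-week WT and 17.4 ± 4.997 CPM in 12-week KO, again without overlap and without passing (adjusted p = 0.18).

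**Figure D4:**
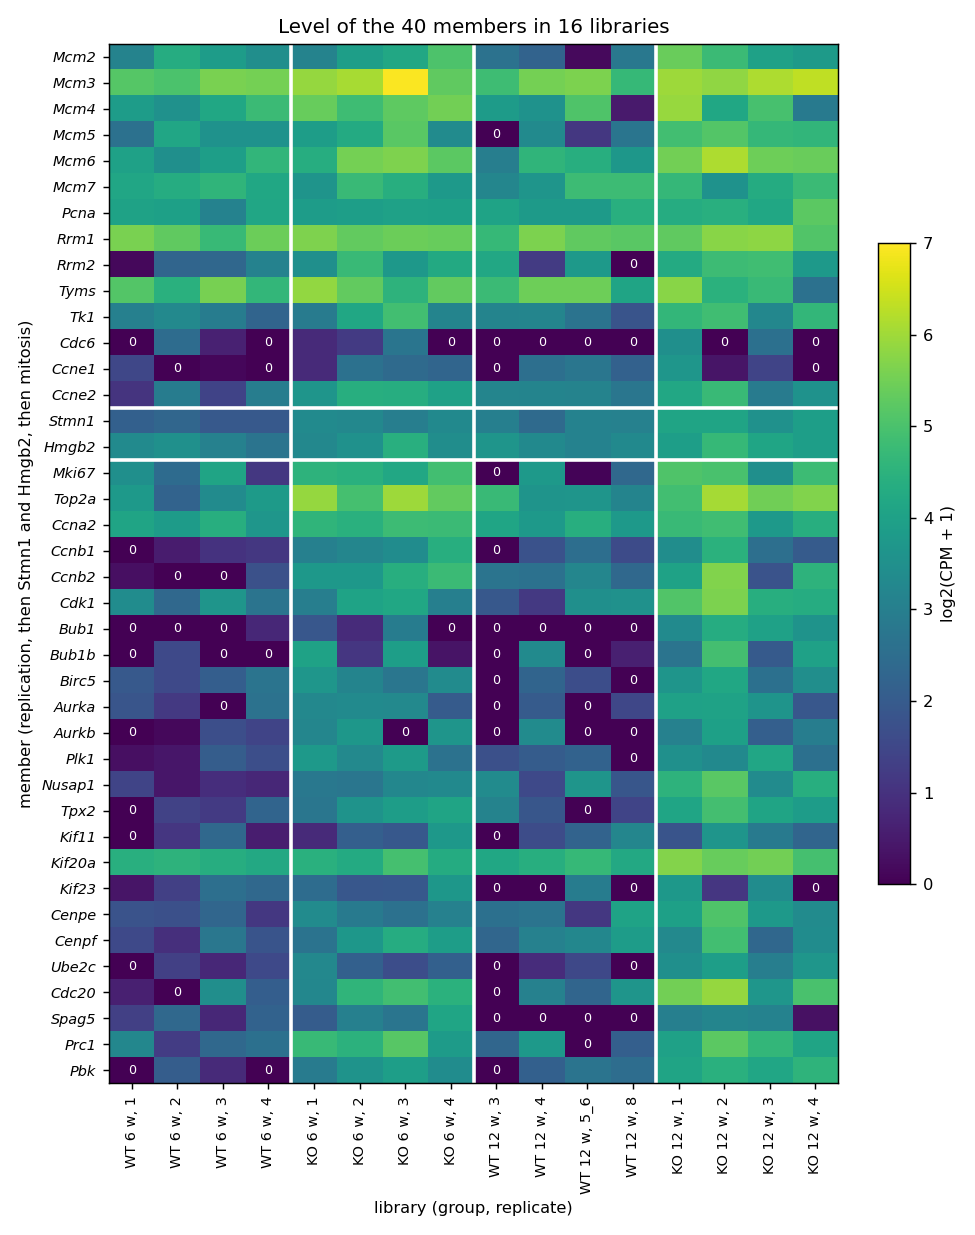
log2(CPM + 1) of the 40 members (rows, replication genes on top, then Stmn1 and Hmgb2, then mitosis genes) in 16 libraries (columns by group and replicate); 0 marks a library without a count. Among mitosis genes the zeros number 17 (WT) and 2 (KO) at 6 weeks and 30 (WT) and 1 (KO) at 12 weeks.

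Many WT values were 0. Of the 96 values of the 24 mitosis genes in 4 libraries, 17 were 0 in WT and 2 in KO at 6 weeks, and 30 in WT and 1 in KO at 12 weeks. Of the 56 values of the replication genes the zeros numbered 4 and 1 at 6 weeks and 7 and 3 at 12 weeks. Over all genes tested, zeros made up 4.20% (WT) and 5.52% (KO) of values at 6 weeks and 9.001% (WT) and 7.91% (KO) at 12 weeks. In 12-week WT replicate 3 alone 13 of 24 mitosis genes were at 0. Within 12-week KO, replicate 2 was the highest library for 19 of 24 mitosis genes and for 4 of 14 replication genes, and without it 1 member, Spag5, was called at that age. Without 12-week WT replicate 3 or replicate 8 the 12-week count was 3 members, and without both 2. At 6 weeks no member was called without WT replicate 1, 2 or 3, and 1 without KO replicate 1 or 3.

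Age changed no member past the threshold in either genotype. Between 12 and 6 weeks in WT 0 of 40 members were called by edgeR, where 0.0117% of all genes were, while 5 members and 7.44% of all genes had an unadjusted p under 0.05. DESeq2 called 3 members (Ccnb2 and Nusap1 higher, Spag5 lower) and 0.905% of all genes to which it gave an adjusted p, which 3 members lacked. All 12-week WT libraries lay above all 6-week WT libraries for Ccnb2, Nusap1 and Stmn1, against 2.31% of all genes. They lay below for Mcm2 and Spag5, against 3% of all genes. The mean mitosis sum was 95.3 ± 21.4 CPM at 6 weeks and 122 ± 16.1 CPM at 12 weeks, and the mean replication sum 214 ± 15.1 and 201 ± 48.1 CPM.

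In KO 0 of 40 members were called between the ages by edgeR, where 0.0234% of all genes were. Unadjusted p values under 0.05 were found for 2 members, Nusap1 (1.45 ± 0.62) and Kif20a (0.95 ± 0.24), a share below that over all genes, 8.8%. DESeq2 called 1 member, Kif20a, and 3.61% of all genes to which it gave an adjusted p, which 30 members lacked. All 12-week KO libraries lay above all 6-week KO libraries for 7 members, namely Pcna, Cdk1, Bub1, Nusap1, Cenpe, Pbk and Stmn1, against 3.05% of all genes. The mean mitosis sum was 316 ± 41.3 CPM at 6 weeks and 442 ± 156 CPM at 12 weeks. The age comparisons share their libraries with the genotype comparisons, so the values are set side by side and not counted as separate evidence.

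The test of whether the genotype effect differed between the ages called 0 of 40 members in edgeR, where 0.00585% of all genes were called. An unadjusted p under 0.05 was found for 6 members: Mcm2, Cdc6, Bub1, Kif20a and Spag5 with a larger KO rise at 12 weeks, and Ccnb2 with a smaller one, where 4.74% of all genes had such a p. DESeq2 called 1 member, Spag5, and 0.327% of all genes to which it gave an adjusted p, which 3 members lacked. The difference was 0.93 ± 0.33 for Kif20a and -3.82 ± 1.32 for Ccnb2 on the log2 scale. The largest fitted difference, that of Cdc6, rests on 2 KO libraries and on a 12-week WT group at 0.

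Other genes of the same processes, from lists drawn up from general knowledge, gave the same order of medians. These lists too were drawn up with earlier results of these data known, so they are not separate evidence. Of 41 further mitosis genes tested, 39 had a positive log2 change at 6 weeks (median 1.25) and 38 at 12 weeks (median 1.25). Of 35 further replication genes, 26 and 23 were positive (medians 0.38 and 0.61), and of 6 G1 cyclin and kinase genes 4 and 4 (medians 0.18 and 0.25). At 6 weeks 1 further mitosis gene rose in edgeR, Tacc3, a spindle protein gene with 9.17 ± 3.08 CPM in WT and 35.5 ± 7.35 CPM in KO (log2 change 1.96 ± 0.34, adjusted p = 0.0093). At 12 weeks 1 further mitosis gene rose, Melk, a kinase gene with no count in WT and 7.45 ± 2.96 CPM in KO (adjusted p = 0.019). At 12 weeks 1 further replication gene rose, the transcription factor gene E2f1, with 0.214 ± 0.427 CPM in WT and 10.4 ± 5.62 CPM in KO (log2 change 5.77 ± 1.46, adjusted p = 0.045). None of the genes of these 3 lists fell past the threshold at either age. Over all genes tested, 0.796% rose at 6 weeks and 2.03% at 12 weeks. The 12-week counts of 1 in 41 and 1 in 35 were near that share.

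Transcripts that mark other cells were measured in the same libraries. The 7 border macrophage markers (Mrc1, Cd163, Lyve1, Pf4, Cbr2, F13a1 and Ms4a7) summed to 51.1 to 94.4 CPM in 6-week WT and 129.6 to 291 CPM in 6-week KO. At 12 weeks they summed to 7.79 to 54.2 CPM in WT and 112 to 187 CPM in KO. None of the 7 was at 0 in any group, all 7 had a positive log2 change of KO against WT at both ages, and 1, Ms4a7 at 12 weeks, passed (edgeR adjusted p = 0.036). The 4 monocyte markers summed to 5.85 to 17.9 and 8.11 to 29.7 CPM in WT and KO at 6 weeks and to 1.08 to 10.7 and 12.9 to 27.7 CPM at 12 weeks, with Ly6c2 and Chil3 at 0 in 3 of the 4 groups. The 4 erythroid markers summed to 7.89 to 42.8 CPM in WT and 2.24 to 48.1 CPM in KO at 6 weeks, and at 12 weeks to 2.38 to 27.3 CPM in WT and 11.7 to 97.5 CPM in KO. The endothelial marker Flt1 had no count in 12-week WT and averaged 6.85 CPM in 12-week KO (edgeR adjusted p = 0.043), while Cldn5 and Ly6c1 were at 0 in that group. The 4 B cell markers were lower in KO at 12 weeks without overlap, with sums of 65.8 to 92.3 CPM in WT and 29.7 to 57.7 CPM in KO, nearly all of it Cd79b (edgeR adjusted p = 0.26). The 6 T and NK cell markers summed to 4.46 to 10.06 CPM in 12-week WT and 0 to 4.19 CPM in 12-week KO, all of it Klrd1 (edgeR adjusted p = 0.36). Of the microglia markers, P2ry12 averaged 16862 CPM in WT and 9622 CPM in KO at 12 weeks (log2 change -0.81, edgeR adjusted p = 2.08e-05). Cx3cr1 averaged 8778 and 6309 CPM (log2 change -0.48, edgeR adjusted p = 0.0033). The part of these cells in the levels of the cell cycle genes was not tested.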

How the data were processed

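The deposited files give, for each of 16 libraries, whole-number read counts per gene, as the authors deposited them. Per the submitters' processing notes, FastQC 0.11.9, cutadapt 2.10, TopHat, SAMtools 1.10, Picard 2.13.2 and HTSeq 0.11.0 were used with GRCm39. Annotation release and strand setting: not given in the sources used here. The counts were analysed with edgeR 4.0.16 (R 4.3.3): TMM scaling, filterByExpr by group (minimum count 10), a robust quasi-likelihood fit over all 16 libraries with group and sex as terms, two-sided tests, Benjamini-Hochberg adjustment over 17090 genes and a threshold of 0.05. The common dispersion was 0.421 (biological coefficient of variation 0.649). An approximate SE was taken as the size of the log2 change over the root of its F value. The scripts were tested on simulated data.

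Each group is set by the labels. The labels name no batch. Members and lists were chosen with earlier results of these data known. Values in every library are given for members past the threshold in any comparison, for Mki67 and Pcna, for the member of each list with the highest mean CPM, and for the members with the largest rise and fall in each comparison; Stmn1 was added after its values were seen. Genes of the further lists are named only past the threshold, and 2 cell type markers are not reported here. Alternatives were DESeq2 1.42.0, its size factors, no low-count filter, no sex term, only the 2 groups compared, a replicate block, plain library sizes and leaving out libraries. Leaving out 12-week WT libraries 3 and 8 together was chosen after seeing the data. Promoter windows of RefSeq (GRCm38.p6) had an entry for 32 of 40 members. A floor of 3 counts covers counting error only, and without molecular identifiers reads are not independent molecules.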

Additional observations from a re-analysis of the deposited data

Results flagged for a closer look

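In 61 sets of 4 libraries, each a group's values of a named member or list sum, the gap from the highest or lowest library to its nearest neighbour was set against the group's range, and 8 exceeded Dixon's critical value for a set of 4. Chance flags about 1 in 20 such sets if their values are normally distributed. That does not hold for genes at or near 0 in most libraries, so the 8 flags cannot be set against that share. In 6-week WT, 1 library stood apart for 4 genes with few reads: Ccnb2 at 2.31 CPM in replicate 4 (others 0 to 0.216), Bub1 at 0.728 CPM in replicate 4 (others 0), Cdc6 at 4.57 CPM in replicate 2 (others 0 to 0.553) and Ccne1 at 1.83 CPM in replicate 1 (others 0 to 0.0791). In 12-week KO, Mcm6 stood at 68.9 CPM in replicate 2 (others 40.9 to 44.7). Spag5 stood at 0.251 CPM in replicate 4 (others 7.07 to 8.18), and Pcna at 36.4 CPM in the same replicate (others 16.9 to 20.2). Ccne1 stood at 11.7 CPM in 12-week KO replicate 1 (others 0 to 1.72).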

How the results depend on the processing

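No called result changed direction under any alternative run. The number of members called depended on the test. At 6 weeks, 3 became 9 with DESeq2, 15 without the low-count filter, and 0 to 3 leaving out 1 library. At 12 weeks, 5 became 14 with DESeq2 and 20 without the filter. It was 2 without WT replicates 3 and 8 together, and 1 to 5 leaving out 1 library. With only the 2 groups compared it was 1 of the 38 members tested. The filter left out 2 members there, Spag5 among them. The 0 members called between ages in WT became 3 with DESeq2 and 3 without the filter, in KO 1 with DESeq2, and for the difference between genotype effects 1 with DESeq2 and 4 without the filter. The cause was not tested. DESeq2 size factors changed no member call. The number of genes called over all genes at 6 weeks, 149, became 366 with DESeq2, 353 without the filter and 94 with the replicate block. At 12 weeks 510 became 1158, 1073 and 68, 204 with only the 2 groups, and 307 without WT replicates 3 and 8. The 12-week block fit compares the genotypes within numbers 3 and 4 alone.

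The median change of the mitosis genes stayed between 2.04 and 2.48 at 6 weeks and between 1.93 and 2.40 at 12 weeks leaving out 1 library. That of the replication genes ranged from 0.57 (without 6-week KO replicate 3) to 1.09 at 6 weeks, and from 0.85 to 1.44 (without WT replicate 5_6) at 12 weeks. Between ages in WT it was -0.06, and 0.27 without WT replicates 3 and 8. The deviations of same-numbered WT and KO libraries from their group means correlated at r from -0.0108 to 0.0623. Such low values cannot show whether a shared number marks a shared litter or day, and the labels do not say. With the replicate number as a block, 1 member (Top2a) was called at 6 weeks, 0 at 12 weeks, and 0 between ages. At 12 weeks only numbers 3 and 4 occur in both genotypes. The other 12-week libraries add nothing to that genotype estimate. Its loss of calls therefore cannot be told apart from the use of fewer libraries. Of 24 mitosis genes, 19 averaged below 5 CPM in 6-week WT and 14 in 12-week WT, so folds against WT rest on few reads.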
